A study of Arabidopsis thaliana with 12 samples.

Results

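In leaves of Arabidopsis thaliana, 82 of 22746 probe sets had a high mean signal in wild type plants and a lower mean in each of 3 mutant lines that carry ssi2. They were chosen by their group means on the log2(signal + 16) scale. The mean had to be at least 8 in wild type and lower by at least 1.5 in ssi2, in ssi2 act1 and in ssi2 sid2 alike, and CSA1 and symbols beginning with UGT, CYP, CRK or RLP were to be left out, which removed 0 probe sets. The annotation gives 1 gene for 38 of the 82 probe sets, several genes for 2 and none for 42. The differences from wild type therefore describe how the members were picked and are given with no test. Comparisons between the mutant lines were not themselves part of the rule and are tested, but the rule used the same arrays and kept only genes that were low in all 3 lines.

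The arrays came from 4 genotypes with 3 arrays each, and the labels state leaves and an age of 4 weeks. These were the wild type Col-0, the single mutant ssi2, and the double mutants ssi2 act1 and ssi2 sid2, so that all mutant plants share the ssi2 mutation. The labels give Col-0 as the genetic background of all samples, and they state neither the alleles nor whether plants were pooled for an array. The titles call the arrays of a genotype biological replicates, without saying whether their plants were grown apart, and the p-values below rest on the spread among them.

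SSI2 encodes a plastid desaturase that turns stearic into oleic acid while both are bound to acyl carrier protein. Loss of it leaves plants low in oleic acid, small, and with defence genes switched on. ACT1 encodes the plastid enzyme that passes oleic acid to glycerol-3-phosphate, and its loss brings oleic acid back up in ssi2. SID2 makes isochorismate, from which most salicylic acid is formed under attack, so that ssi2 sid2 plants are low in oleic acid but make little salicylic acid.

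The median signal of an array ranged from 95.7 to 158, and replicates correlated with Pearson's r of 0.914 to 0.982 across probe sets, which are not independent. Leaf genes were bright, with psbA between 10082 and 21427 and RCA between 2419 and 21357 over the 12 arrays. Of a mesophyll list 4 of 18 genes were measured by a probe set of 1 gene. They did not move one way. Against wild type, LHCB4.2, for a chlorophyll-binding antenna protein, had log2 differences of -1.91, -1.10 and -1.69 in ssi2, ssi2 act1 and ssi2 sid2. RCA, for Rubisco activase, had 1.17, 0.44 and 1.30. The plastid genes rbcL and psbA had -0.82, -0.77 and -0.21, and -0.39, -0.39 and -0.31. The part of such shifts in the members' levels was not tested. SPCH, a stomatal lineage gene, lay between 7.38 and 51.2, FMA, a guard cell gene, between 124 and 275, and the root gene PYK10 between 21.5 and 308. Of short phloem, flower, seed and epidermis lists 0 genes were measured. No probe set was named for SSI2, ACT1 or SID2 alone, so the genotypes could not be checked here by the transcripts of the mutated genes. Of the wild type arrays replicate 2 stands apart from the others, and of the ssi2 arrays replicate 3 does. Wild type replicate 2 was the lowest wild type array for 17 of the 38 named members and the highest for 17. Without it the rule takes 135 probe sets, 69 of them among the 82, and without both of these arrays it takes 131, of which 68 are among the 82. The tissue was measured in bulk, so fewer cells of a type and less RNA per cell cannot be told apart.

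Over the 82 members the median log2 difference from wild type was -2.67 in ssi2, -2.24 in ssi2 act1 and -2.46 in ssi2 sid2, beside 0.08, 0.03 and 0.01 over all probe sets. In 72 members, 36 of the named ones, every one of the 9 mutant arrays was dimmer than every wild type array, as in 2.40% of all probe sets. The rule used the same arrays and favours such a separation, so nothing is read from that contrast. The 2 named members whose arrays overlapped were AT5G02540 and AT1G12845, and in both it was wild type replicate 2 that reached down to the mutant arrays. The other 8 were unnamed. In 1 of these, chosen here after its values were seen, the ssi2 sid2 signals were 7780, 119 and 10976 beside 6643, 8194 and 8003 in wild type, so that its low mean in that line rested on replicate 2 alone. In the fit against wild type 73 of the 82 members passed an adjusted p of 0.05 downward in ssi2, 58 in ssi2 act1 and 69 in ssi2 sid2, where 4.34%, 1.13% and 2.79% of all probe sets did. The rule fixed that direction, and nothing is read from these counts. Just inside the rule lay AT3G11690 at -1.53, AT5G03230 at -1.54 and AT3G47510 at -1.54 in the line nearest to wild type. Just outside it lay AT4G22160 at -1.49, AT5G47550 at -1.49 and AT4G25260 at -1.47. AT5G41870 had a wild type mean of 8.05 and was taken, and AT3G44610, with 7.95, was not.

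**Figure D1:**
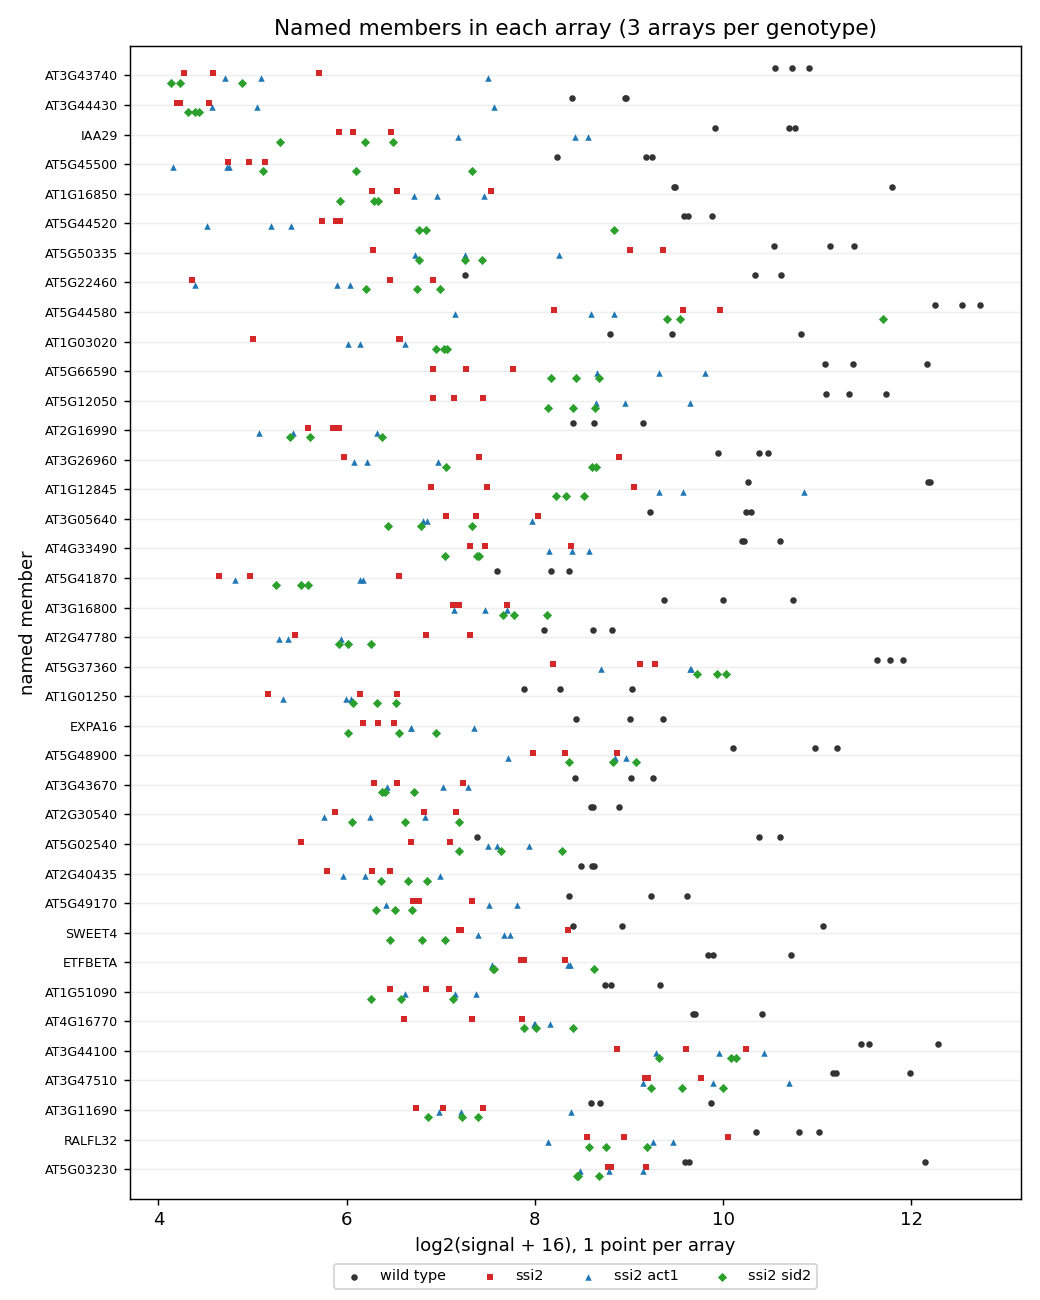
Signal of the 38 named members on the log2(signal + 16) scale, 1 point for each of 12 arrays, with genes ordered by their mean difference from wild type. Wild type points lie to the right of all mutant points except for AT5G02540 and AT1G12845, where wild type replicate 2 overlaps them.

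The gene that was lowest relative to wild type among the named members was AT3G43740, which encodes a protein with leucine-rich repeats, a fold that often binds other proteins. Signals of AT3G43740 were 1486, 1912 and 1688 in wild type, 3.32, 36.1 and 7.95 in ssi2, 165, 18.1 and 10.2 in ssi2 act1 and 13.6, 1.53 and 2.79 in ssi2 sid2. It was bright in all wild type arrays and under 16 in 6 of the 9 mutant arrays, and ssi2 act1 replicate 1 was the one mutant array above 100. Its log2 differences from wild type were -5.88, -4.97 and -6.32 in ssi2, ssi2 act1 and ssi2 sid2. Since most mutant signals lie under the pseudocount, the size of these differences depends on it.

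AT5G45500 encodes another protein of the leucine-rich repeat type, in the group named after ribonuclease inhibitors. Signals of AT5G45500 were 562, 284 and 592 in wild type, 10.6, 15.1 and 19.2 in ssi2, 1.84, 10.8 and 10.6 in ssi2 act1 and 52.3, 145 and 18.6 in ssi2 sid2. The wild type arrays did not overlap the mutant ones, and ssi2 sid2 replicate 2 was the brightest of the mutant arrays. The log2 differences were -3.94, -4.34 and -2.70. The lowest value the scale allows is 4, and ssi2 had means of 4.85 ± 0.75 for AT3G43740 and 4.94 ± 0.20 for AT5G45500 (SD, n = 3).

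AT3G44430, whose role is not stated here, lies on chromosome 3 near AT3G43740. Signals of AT3G44430 were 480.4, 321 and 486 in wild type, 2.38, 7.28 and 2.78 in ssi2, 173, 17.1 and 7.73 in ssi2 act1 and 3.83, 4.99 and 5.62 in ssi2 sid2. Again 1 array of ssi2 act1, replicate 1, was above 100 while the other mutant arrays lay under 18. The log2 differences from wild type were -4.45, -3.05 and -4.40.

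Among regulators, IAA29 encodes a short-lived repressor of auxin responses that is itself induced by auxin and by shade. Signals of IAA29 were 1647, 951 and 1726 in wild type, 44.7, 51.3 and 73 in ssi2, 129.7, 362 and 327 in ssi2 act1 and 74, 57.3 and 23.2 in ssi2 sid2. All mutant arrays were below wild type, and the ssi2 act1 arrays were all above those of the other mutant lines. AT3G05640 and AT3G16800 encode protein phosphatases of the PP2C class, in a clade that restrains growth when water is short. AT3G05640 differed from wild type by -2.43, -2.71 and -3.06 and AT3G16800 by -2.69, -2.60 and -2.18. A level below wild type in each line was required of both phosphatase genes by the rule. AT1G01250, a transcription factor gene of the AP2/ERF family, had differences of -2.45, -2.61 and -2.09. RALFL32, which encodes a small secreted peptide of the rapid alkalinization factor family, had -1.54, -1.77 and -1.89, close to the limit set by the rule.

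Of 6 genes for cell wall or secreted proteins, AT5G66590 lay furthest below wild type in ssi2. It encodes a protein of the CAP superfamily, to which the pathogenesis-related protein PR-1 belongs. Signals of AT5G66590 were 2658, 4584 and 2154 in wild type, 202, 139 and 105 in ssi2, 389, 883 and 623 in ssi2 act1 and 395, 273 and 331 in ssi2 sid2. The 3 ssi2 arrays were dimmer than all arrays of the double mutants, and all of them were far below wild type. EXPA16 encodes an expansin, a protein that loosens cell walls, and differed from wild type by -2.60, -2.03 and -2.43. The pectin-degrading enzymes were represented by AT5G41870, a polygalacturonase-like gene, with -2.66, -2.33 and -2.60, and AT5G48900, a pectate lyase gene, with -2.38, -2.25 and -2.01. AT3G26960, a gene of the Ole e 1 allergen and extensin family, had -2.84, -3.85 and -2.16. AT4G33490 encodes an aspartyl protease, with signals of 1181, 1158 and 1542 in wild type, 161, 142 and 318 in ssi2, 365, 269 and 319.5 in ssi2 act1 and 154, 151 and 117 in ssi2 sid2. Its wild type arrays were well above every mutant array, and within the mutants the ssi2 sid2 arrays were below those of ssi2 act1.

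The genes of transport, binding and lipid proteins numbered 5. SWEET4, a sugar transporter gene, differed by -1.88, -1.86 and -2.69, and its wild type signals were uneven, with 2124 in replicate 2 against 323 and 469. On the log2 scale wild type replicates 1 and 3 were at 8.4 and 8.9, beside a mean of 7.6 in ssi2. The place of SWEET4 among the members thus rested on wild type replicate 2. AT2G16990, of the major facilitator superfamily of transporters, had -2.94, -3.12 and -2.93 and was about equally low in each line. AT1G51090, for a protein with a heavy-metal-associated domain, had -2.16, -1.91 and -2.30. AT3G44100, for a protein with a lipid recognition domain related to MD-2, had -2.20, -1.87 and -1.92 and mutant signals between 451 and 1373, all below wild type. AT2G47780, a gene of the rubber elongation factor family whose proteins sit on lipid droplets, had -1.98, -2.98 and -2.45.

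Enzymes and redox proteins made up 8 of the named members. AT1G03020 and AT2G30540 encode glutaredoxins of the plant-specific CC type, small redox proteins that use glutathione. Signals of AT1G03020 were 429.6, 1796 and 685 in wild type, 78.4, 78.6 and 16 in ssi2, 54.5, 82 and 48.6 in ssi2 act1 and 118, 115 and 107 in ssi2 sid2. The wild type arrays were all above the mutant ones, with wild type replicate 2 the highest. AT2G30540 had differences of -2.08, -2.42 and -2.08. AT3G43670 encodes a copper amine oxidase, which oxidizes polyamines. Signals of AT3G43670 were 596, 328 and 505 in wild type, 62.2, 77 and 135 in ssi2, 141, 114 and 70.4 in ssi2 act1 and 67.2, 88.8 and 68.9 in ssi2 sid2. All 9 mutant arrays lay under the lowest wild type array. AT5G44520, related to ribose 5-phosphate isomerases of the pentose phosphate pathway, had signals of 928, 775 and 754 in wild type, 37.4, 43.2 and 45.1 in ssi2, 20.5, 6.91 and 26.3 in ssi2 act1 and 98.8, 444 and 93 in ssi2 sid2. The ssi2 act1 arrays were the dimmest, and ssi2 sid2 replicate 2 was far brighter than the other mutant arrays. AT5G22460, for an alpha/beta hydrolase, had signals of 1276, 137 and 1547 in wild type, 105, 72.2 and 4.48 in ssi2, 4.99, 49.7 and 43.5 in ssi2 act1 and 111, 91.1 and 57.9 in ssi2 sid2. Wild type replicate 2 was only just above the mutants, and the other wild type arrays were far above them. The remaining enzyme genes were AT4G16770, for an oxoglutarate-dependent oxygenase, with differences of -2.66, -1.88 and -1.83. AT5G02540, for a short-chain dehydrogenase, had -3.03, -1.78 and -1.75, but its signal in wild type replicate 2 was 151, within the range of the mutants. ETFBETA encodes a subunit of the mitochondrial flavoprotein that takes electrons from the breakdown of branched-chain amino acids and lysine, and had -2.13, -2.06 and -2.23.

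The other 12 named members were put in no group by role. AT1G16850, with signals of 697, 3540.3 and 701 in wild type, 61.1, 76.7 and 169.6 in ssi2, 108, 159 and 89 in ssi2 act1 and 62.3, 45.1 and 64.8 in ssi2 sid2, had its lowest mean in ssi2 sid2. Its ssi2 sid2 arrays were all below those of ssi2 act1, and the ssi2 arrays overlapped with both. AT5G50335 had signals of 2675, 1479 and 2231 in wild type, 499.7, 61.7 and 640.4 in ssi2, 90, 289 and 137 in ssi2 act1 and 137, 157 and 93.3 in ssi2 sid2. Its ssi2 arrays were uneven, with replicate 2 far below the other ssi2 arrays, and all were below wild type. AT5G44580 had signals of 6777, 5917 and 4868 in wild type, 987, 747 and 279.6 in ssi2, 126, 442 and 372 in ssi2 act1 and 727, 3308 and 662 in ssi2 sid2. Mutant arrays did not reach wild type, and among them ssi2 sid2 replicate 2 came nearest to it. AT5G12050 had signals of 2563, 2164 and 3384 in wild type, 125, 105 and 158 in ssi2, 385, 482 and 784 in ssi2 act1 and 382, 265 and 323 in ssi2 sid2. The ssi2 arrays were below all arrays of both double mutants.

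Like AT5G12050, the other 7 of these were not among the 10 named members lowest against wild type. AT1G12845 differed from wild type by -3.74, -1.63 and -3.19. AT5G37360 was even among wild type arrays (SD 0.14 on the log2 scale, n = 3) and had -2.91, -2.44 and -1.88. AT2G40435 was likewise even in wild type (SD 0.07) and had -2.40, -2.20 and -1.95. AT5G49170 had -2.14, -1.82 and -2.57 and AT3G11690 had -1.98, -1.53 and -1.90. AT3G47510 had -2.08, -1.54 and -1.85. AT5G03230, of the senescence regulator family, had -1.54, -1.66 and -1.93, and its wild type arrays were uneven, with 4508 in replicate 2 against 759 and 782. On the log2 scale wild type replicates 1 and 3 were at 9.60 and 9.64, beside a mean of 8.92 in ssi2. Its place among the members thus rested on wild type replicate 2.

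The 42 unnamed members passed the same limits as the 38 named ones, so nothing is read from their similar medians. These were -2.67, -2.10 and -2.53 in ssi2, ssi2 act1 and ssi2 sid2 for the unnamed members, beside -2.66, -2.32 and -2.42 for the named ones. Some were lower. Probe set 257008_at had signals of 27418, 19357 and 24589 in wild type and between 81.5 and 466 in 8 mutant arrays, with 5157 in ssi2 act1 replicate 1. Probe set 256601_s_at had 4577, 1647 and 4731 in wild type and under 5 in all ssi2 and ssi2 sid2 arrays. In ssi2 act1 it had 3153 in replicate 1, 8.7 in replicate 2 and 1697 in replicate 3, so its arrays within that line ranged from near the wild type level to the floor. Probe sets with the suffix s_at, whose probes are shared by several transcripts, were 4.88% of the members. Those with x_at, in which some probes also match other sequences, were 1.22%, beside 4.11% and 0.554% among all probe sets.

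The position of the named members was taken from the order of genes in a RefSeq table, since the arrays come with no coordinates. All 38 lie on the 5 nuclear chromosomes. Chromosome 5 holds 14 of them among 2982 measured genes (0.469%) and chromosome 3 holds 11 among 2720 (0.404%), beside 38 of 13217 overall (0.288%). Chromosome 1 holds 5 (AT1G01250, AT1G03020, AT1G12845, AT1G16850 and AT1G51090), chromosome 2 holds 4 (AT2G16990, AT2G30540, AT2G40435 and AT2G47780) and chromosome 4 holds 4 (RALFL32, AT4G16770, IAA29 and AT4G33490). The nearest to SSI2 on chromosome 2 is AT2G40435, 458 annotated genes away, and AT1G51090 is 1836 genes from ACT1 and 3016 from SID2 on chromosome 1.

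A pair of members lies at most 4 measured genes apart in 2 places. On chromosome 3 the pair is AT3G43670 and AT3G43740, 19 annotated genes apart, and AT3G44100 and AT3G44430 follow 20 and 37 measured genes further on. On chromosome 5 the pair is AT5G44520 and AT5G44580, 21 annotated genes apart, with AT5G45500 another 41 measured genes on. ETFBETA lies 59 measured genes before AT5G44520. The rest of chromosome 5 holds AT5G48900 and AT5G49170, 15 measured genes apart, and the others are at least 40 measured genes from the next member.

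The genes between these members were close to wild type in the median, but most of them had a wild type mean under 8. A dim gene has little room to fall, so these medians say little about the brighter neighbours. In the window from 4 measured genes before AT3G43670 to 4 after AT3G44430, 46 measured genes are not members, and their median differences were 0.11 in ssi2, -0.002 in ssi2 act1 and -0.06 in ssi2 sid2. Of these 46, 6 had a wild type mean of at least 8, and 0 were lower by at least 1 in all 3 lines. In the like window on chromosome 5, 51 measured genes are not members, 16 of them with a wild type mean of at least 8, and their medians were 0.11, 0.03 and -0.05. The 1 gene of these that was lower by at least 1 in all 3 lines was AT5G44530, a subtilisin-like protease gene next to AT5G44520, with -1.79, -2.06 and -1.80. It was left out by the rule for its wild type mean of 7.35. AT5G44570, between the same members, was instead higher in ssi2, with 3.18, 0.07 and 0.55. More of the 16 brighter genes of the chromosome 5 window lay below wild type in all 3 lines than above it. AT5G44450 had -1.68, -1.15 and -0.97, AT5G45360 had -1.82, -0.96 and -1.69 and AT5G45410 had -1.28, -3.28 and -0.75. CYTC6A alone was above wild type in all 3 lines, with 0.96, 2.50 and 1.36, and the rest of the 16 that were not below in all 3 were mixed. On chromosome 3 the brighter gene AT3G44020 had -1.58, -1.11 and -0.46. Around all 38 named members, 294 measured genes within 4 places are not members. Of these, 5 (1.7%) were lower by at least 1 in all 3 lines, beside 94 of 13179 measured genes that are not members (0.713%).

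**Figure D2:**
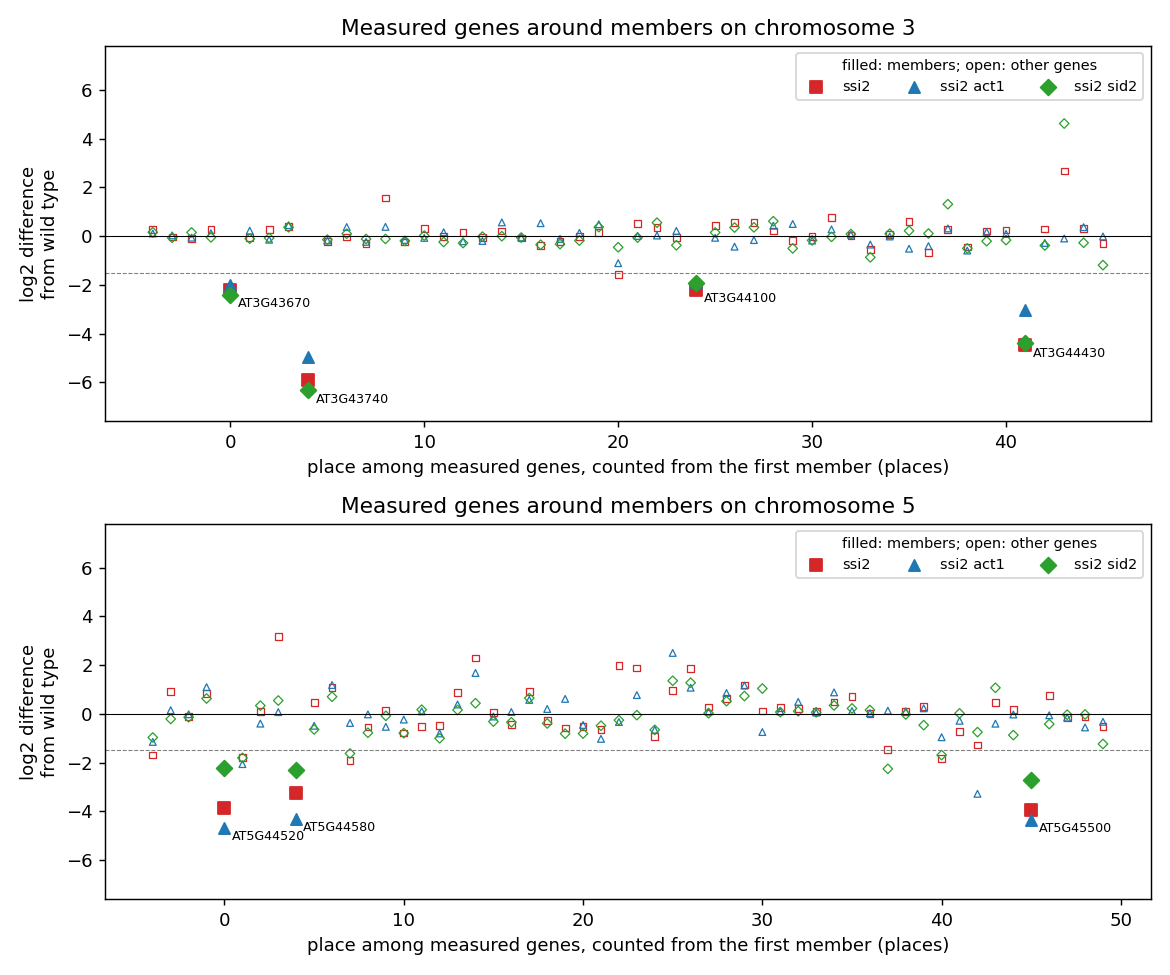
Log2 difference from wild type of each measured gene around the members on chromosomes 3 and 5, by place in gene order, with members filled, other genes open, and the rule's limit of -1.5 dashed. The members stand at -1.87 to -6.32, where the rule required at most -1.5. The medians of the genes between them lie within 0.12 of 0, and most of those genes had a wild type mean under 8.

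Neighbouring members also shared the arrays in which they were less dim, a pattern that was noticed after the values had been seen. On chromosome 3, ssi2 act1 replicate 1 was the brightest of the 9 mutant arrays for all 4 members. That array was the brightest for 15 of the 82 members (18.3%) and for 12.9% of all probe sets. It exceeded the mean of the other ssi2 act1 arrays by 2.60 for AT3G43740 and 2.75 for AT3G44430 on the log2 scale, and by 0.56 for AT3G43670 and 0.81 for AT3G44100. Of the 46 other genes of that window, 9 (19.6%) were brightest in it. For AT3G43670 and AT3G44100 it led the other mutant lines only narrowly. Their signals in it were 141 and 1373, beside 135 in ssi2 replicate 3 and 1192 in ssi2 replicate 1.

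On chromosome 5 the array was ssi2 sid2 replicate 2. It was the brightest of the mutant arrays for all 3 members, for 9 of the 82 (11%) and for 6.4% of all probe sets. It exceeded the mean of the other ssi2 sid2 arrays by 2.04 for AT5G44520, 2.23 for AT5G44580 and 1.73 for AT5G45500. AT5G44530, which is no member, followed them by 1.30, with signals of 124, 159 and 161 in wild type, 27, 24.7 and 43.4 in ssi2, 21.3, 51.1 and 7.93 in ssi2 act1 and 26.7, 69.2 and 12 in ssi2 sid2. In that window 5 of the 51 other genes (9.8%) were brightest in this array. AT5G45310, also in this window, had an excess of 1.95 there without being low in ssi2 act1 (0.13). What sets these arrays apart at these places was not tested.

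**Figure D3:**
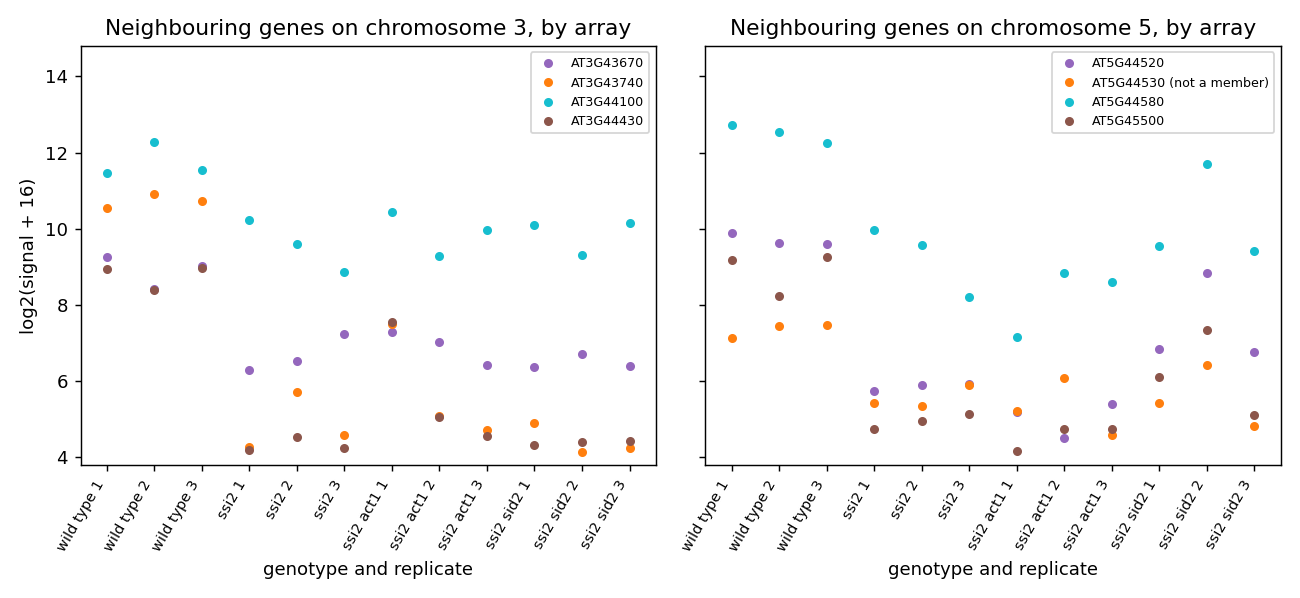
Log2(signal + 16) of neighbouring genes in each of the 12 arrays, with members of chromosome 3 on the left and, on the right, members of chromosome 5 with AT5G44530. Among the mutant arrays AT3G43740 and AT3G44430 are brightest in ssi2 act1 replicate 1, and AT5G44520, AT5G44580 and AT5G45500 in ssi2 sid2 replicate 2, and none of them reaches its wild type arrays.

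The comparisons between mutant lines ask whether act1 or sid2 altered the low level of these genes. In the fit of all 12 arrays, 70 of the 82 members, and 33 of the 38 named ones, passed the threshold in none of the 3 comparisons. The like share was not counted over all probe sets, so these counts cannot be read as particular to the members. Shares over all probe sets are given below for each comparison. The median SE of a difference was 0.45 on the log2 scale over the members, so that differences of about 1 were hard to tell from the spread. The 2 lines compared with ssi2 use the same ssi2 arrays, and all 9 mutant arrays took part in choosing the members. A gene that act1 or sid2 had brought back to within 1.5 of wild type could not be a member, so the counts below do not measure how often either mutation restored a low gene.

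Between ssi2 act1 and ssi2, 8 members were higher and 1 lower at an adjusted p under 0.05, or 9.76% and 1.22%, beside 3.17% and 5.20% of all probe sets. The balance over all probe sets, 720 higher and 1183 lower, turned to 1074 and 1031 with quantile normalization and to 1382 and 815 with median centring, and 11 members were then higher and 1 lower under either. The median difference was 0.22 for the members and -0.04 for all. Named among them were AT5G12050 at 1.92 (SE 0.299, limma adjusted p = 0.00244), AT5G66590 at 1.95 (SE 0.366, limma adjusted p = 0.00697) and IAA29 at 1.90 (SE 0.42, limma adjusted p = 0.0163). The arrays of both lines did not overlap for any of these 3 genes. AT5G12050 rose from 7.17 ± 0.26 to 9.08 ± 0.51 (SD, n = 3), AT5G66590 from 7.32 ± 0.43 to 9.26 ± 0.58, and IAA29 from 6.16 ± 0.29 to 8.06 ± 0.76. Their wild type means were 11.38, 11.54 and 10.46 in that order, and the rule had required ssi2 act1 to lie at least 1.5 below them. Calls of AT5G12050 and AT5G66590 held in all 22 alternatives. The call of IAA29 was lost without ssi2 replicate 1 or 2 or ssi2 act1 replicate 2 or 3 (adjusted p of 0.0589, 0.0684, 0.0706 and 0.0724), within a range of 0.000446 to 0.0724. AT1G12845 had the highest mean difference of the named members here but a wide spread (SE 0.626, limma adjusted p = 0.0615). The count of 9 fell to 5 without ssi2 replicate 1, ssi2 replicate 2 or ssi2 act1 replicate 2, and it was 17 without both arrays that stand apart.

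Between ssi2 sid2 and ssi2 only 2 members passed, both higher (2.44%), beside 1.42% of all probe sets higher and 1.71% lower. Over all probe sets these were 322 higher and 389 lower, a balance that turned to 428 and 353 with quantile normalization and to 424 and 267 with median centring, while 3 members were higher and 0 lower under either. By limma 15 members had an unadjusted p under 0.05 here, and 20 had one in each of the other comparisons between lines. This was not counted over all probe sets, so nothing is read from it. The named one of the 2 that passed was AT5G12050 at 1.23 (SE 0.299, limma adjusted p = 0.0489), with no overlap between the arrays. That call was lost in 13 of 22 alternatives, 9 of them on leaving out a single array (any of ssi2 or ssi2 sid2, replicate 2 of ssi2 act1, replicate 1 or 3 of wild type), with an adjusted p from 0.000368 to 0.188. AT5G66590, the CAP gene, had 1.11 (SE 0.366, limma adjusted p = 0.139), and AT5G44520 had 1.63 (SE 0.467, limma adjusted p = 0.0881). IAA29 had -0.16 (SE 0.42, limma adjusted p = 0.917). The count of 2 was 0 without ssi2 replicate 3 or any single ssi2 sid2 array. Leaving out replicate 1 or 2 of ssi2, replicate 2 of ssi2 act1 or replicate 1 or 3 of wild type gave 1, and leaving out replicate 2 of wild type gave 3.

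Set against each other, ssi2 act1 and ssi2 sid2 differed in 7 members, of which 5 were higher in ssi2 act1 and 2 higher in ssi2 sid2 (6.10% and 2.44%, beside 2.44% and 3.96% of all probe sets). Over all probe sets 555 were higher and 901 lower as deposited, and 724 and 699 with median centring. IAA29 was higher in ssi2 act1 by 2.06 (SE 0.42, limma adjusted p = 0.0144). Its call was lost without ssi2 act1 replicate 2 or 3 or ssi2 sid2 replicate 3 (0.0631, 0.0644 and 0.0799), within a range of 0.001 to 0.0799. AT4G33490, the aspartyl protease gene, was higher in ssi2 act1 by 1.09 (SE 0.295, limma adjusted p = 0.0491). This was lost in 13 of 22 alternatives, 10 of them on leaving out a single array (any of ssi2 act1 or ssi2 sid2, replicate 1 or 2 of ssi2, replicate 1 or 3 of wild type), with an adjusted p from 0.00538 to 0.202.

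AT5G44520 was the named member that was higher in ssi2 sid2, with a difference of -2.45 (SE 0.467, limma adjusted p = 0.0105) for ssi2 act1 against ssi2 sid2. Its arrays did not overlap between the lines. Without ssi2 sid2 replicate 2, the array in which this gene was brightest, the difference was -1.77 (limma adjusted p = 0.00647). Without ssi2 act1 replicate 2 the call was lost (0.0502), and at a pseudocount of 64 the difference was -1.53, within a range of 0.00413 to 0.0502 for the adjusted p. Its neighbours had AT5G44580 at -2.02 (SE 0.646, limma adjusted p = 0.0906) and AT5G45500 at -1.63 (SE 0.476, limma adjusted p = 0.0649), which did not pass. On chromosome 3 AT3G43740 had 1.35 (SE 0.615, limma adjusted p = 0.254) and AT3G44430 had 1.35 (SE 0.584, limma adjusted p = 0.227), with the higher ssi2 act1 mean resting on replicate 1. The count of 7 fell to 3 without ssi2 act1 replicate 2 or 3 or ssi2 sid2 replicate 1 or 3, and it was 12 without both arrays that stand apart.

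**Figure D4:**
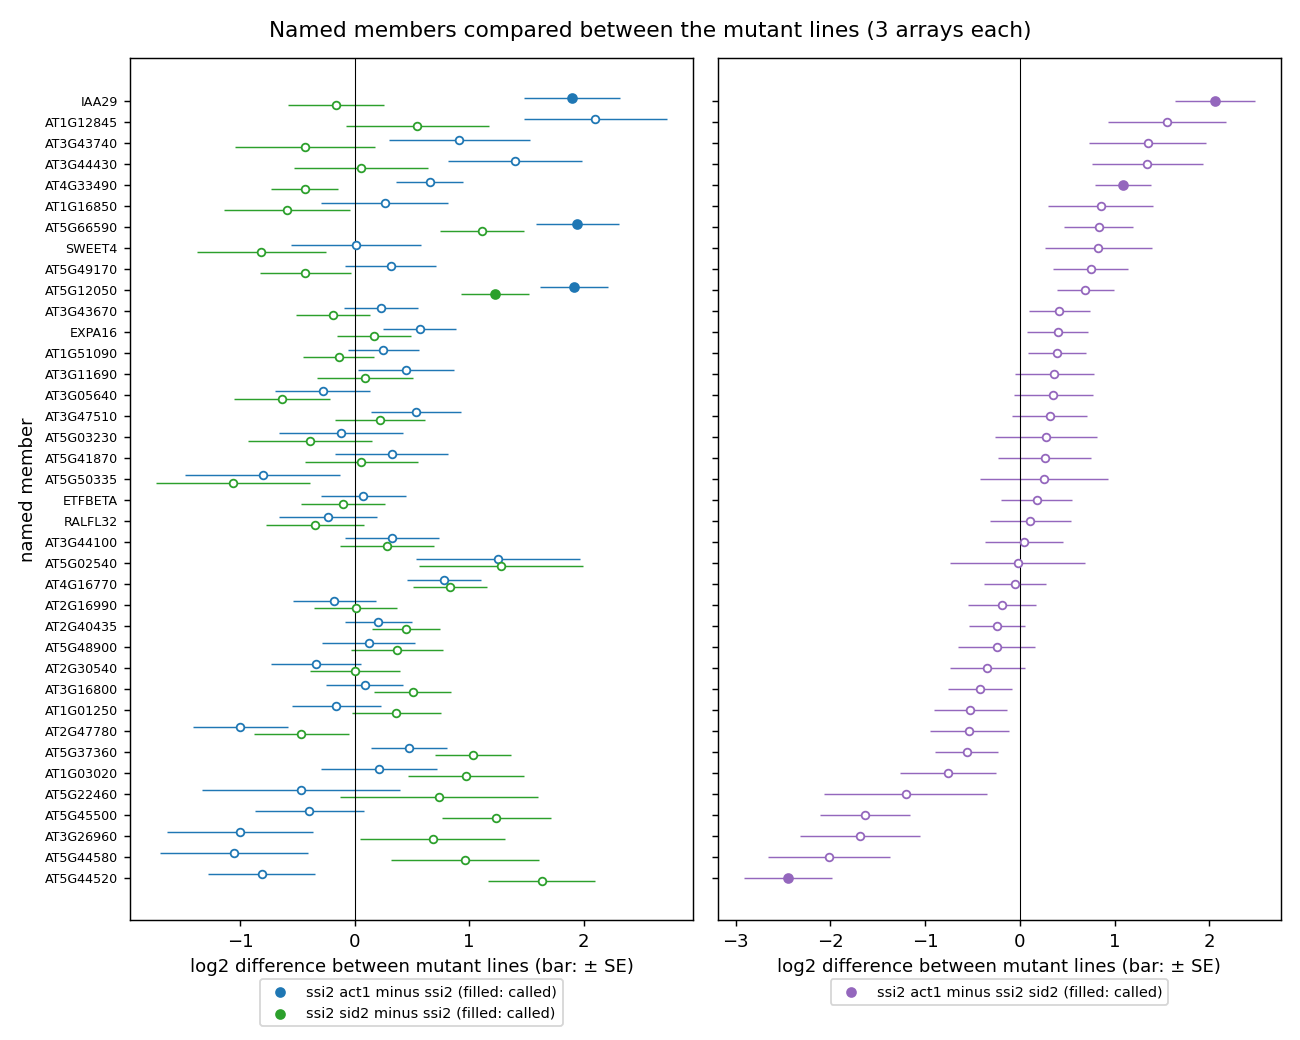
Log2 differences between mutant lines for the 38 named members with SE bars, ssi2 act1 and ssi2 sid2 each minus ssi2 on the left and ssi2 act1 minus ssi2 sid2 on the right, and filled points for an adjusted p under 0.05. Of the 38 genes, 3 are filled for ssi2 act1 against ssi2, 1 for ssi2 sid2 against ssi2 and 3 for the double mutants against each other.

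The order of the lines varied from member to member. Of the 38 named members 16 had their lowest mean in ssi2, 9 in ssi2 act1 and 13 in ssi2 sid2. In 12 of them the 3 differences from wild type lay within 0.5 of each other, as for AT2G16990, ETFBETA and AT3G44100, and in 16 they spread over more than 1. None of the 5 named members with a call passed in all 3 comparisons, so the tests settle their order only in part. For the 33 named members with no call the order is not settled, which does not show that their lines were alike. In AT4G16770, for example, ssi2 act1 was above ssi2 by 0.78 (SE 0.326, limma adjusted p = 0.185) with no overlap between the arrays.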

How the data were processed

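RNA of leaves was hybridised to 12 Affymetrix arrays, and the authors deposited 1 signal intensity per probe set and array on a linear scale. Affymetrix Expression Console 1.0 was used, per the submitters' processing notes. How probes were summarised and scaled, and the genome build, is not given in the sources used here. Trimmed means of the deposited intensity were nearly equal between arrays, and this scaling was kept. The number of arrays limits the precision. After 64 control probe sets had been left out, 22746 remained. Names came from the platform annotation (13513 probe sets with 1 gene, 503 with several, 8730 with none). Symbols, chromosomes and gene order were taken from RefSeq (assembly TAIR10.1), which matched all but 77 of the 13513. Its coordinates are not printed, since the arrays name no build.

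Values were transformed to log2(signal + 16), and all 12 arrays entered 1 linear model with genotype means (limma 3.58.1, R 4.3.3). Contrasts were moderated with eBayes, tested on both sides and adjusted over all 22746 probe sets (Benjamini-Hochberg), with a threshold of 0.05. The fit was also run on simulated data with independent normal noise and no array that stood apart. That run cannot speak to arrays such as wild type replicate 2, and nothing here rests on it. Members, lists and tests were chosen with earlier results of these data known. Every member with 1 gene is named, and values by array are given for the marker genes AT3G43740 and AT5G45500, the 10 members lowest against wild type, those called between mutant lines and those at most 4 measured genes apart. AT5G44530 and other genes that are no members were named after their values were seen. Functional groups were drawn from general knowledge and not from an annotation file, so the planned classes by product name were not made. Alternatives were 2 scalings, pseudocounts of 1 and 64, a filter at the 40th percentile, the replicate number as a block, only the 6 arrays compared, array weights, another variance prior, and leaving out arrays.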

Additional observations from a re-analysis of the deposited data

Results flagged for a closer look

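In 5 named members the difference from wild type differed between 2 mutant lines by the test of that difference itself, in limma over all 12 arrays. AT5G12050 was higher by 1.92 in ssi2 act1 than in ssi2 and by 1.23 in ssi2 sid2 than in ssi2. AT5G66590 was higher by 1.95 in ssi2 act1 than in ssi2. IAA29 was higher by 1.90 in ssi2 act1 than in ssi2 and by 2.06 in ssi2 act1 than in ssi2 sid2. AT4G33490 had a difference of 1.09 and AT5G44520 one of -2.45 for ssi2 act1 against ssi2 sid2. All 7 values kept their sign in all 22 alternatives, and 2 of them, AT5G12050 in ssi2 sid2 against ssi2 and AT4G33490, lost their call in 13 of the 22 each.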

How the results depend on the processing

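The rule took 82 probe sets in the main setting, 71 to 102 with other scalings and pseudocounts, 131 without both arrays that stand apart, and 78 to 135 without a single array. Members called were 9 for ssi2 act1 against ssi2, 2 for ssi2 sid2 against ssi2 and 7 for ssi2 act1 against ssi2 sid2. With array weights these were 26, 19 and 22, without both arrays that stand apart 17, 4 and 12, and without a single array 5 to 13, 0 to 3 and 3 to 9. For these settings, here and above, calls over all probe sets were not counted. The moves therefore cannot be read as particular to the members. For ssi2 sid2 against ssi2 the count was 1 at a pseudocount of 1 or 64, with only the 6 arrays compared and with the trended prior. The cause of these moves was not tested. With the replicate block the counts were 8, 2 and 6, and the call of AT4G33490 was lost (adjusted p = 0.0679). The labels do not tie the numbers to a shared growth or day. Same-numbered arrays of different genotypes had deviations correlated from -0.38 to 0.33 over 18 pairs. For differently numbered arrays the range was -0.38 to 0.46 over 36 pairs. These ranges cannot settle whether same-numbered samples share more than a number. Median centring moved the median of all probe sets by over 0.1 in 5 comparisons. It became -0.22 for ssi2 and -0.14 for ssi2 sid2 against wild type, 0.24 for ssi2 act1 and 0.08 for ssi2 sid2 against ssi2, and 0.15 for ssi2 act1 against ssi2 sid2. Against wild type the balance of all probe sets also turned, from 1312 higher and 987 lower to 891 and 1719 in ssi2, and from 823 and 635 to 612 and 790 in ssi2 sid2. Many mutant signals of AT3G43740, AT3G44430 and AT5G45500 lie under 16, where a level is hard to tell from none.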
